A study of Mus musculus with 4 samples.

Results

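The collagen chain genes of the salivary glands were compared between mice without Myd88 and mice with it. Myd88 encodes an adaptor protein that passes signals from Toll-like and interleukin-1 receptors to the cell. The members were all genes whose name on the array is Col, a number, the letter a and a number, and this rule found 43 genes, represented by 68 of 55681 probes, among 34844 gene names. Members were then divided by the structure of the protein into fibrillar chains, basement membrane chains and 6 smaller classes.

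RNA came from submandibular and sublingual glands of female C57/BL6 mice at 10 weeks of age. The labels give 2 arrays to Myd88-null glands, called Myd88-KO, and 2 to wild-type glands, called Wildtype, and no allele or agent is named that both groups carry. The null mice lack the gene in every cell of the body, not in 1 cell type, and the study describes the line as backcrossed for several generations, with the animals born to heterozygous parents. The study names the SMG alone as the tissue of its arrays and gives more animals per genotype than there are arrays, and the labels do not say whether an array holds the RNA of 1 animal or of several, so a p-value here measures the spread between arrays, which may be technical. The study describes dissecting away lymph nodes and connective and fatty tissue before RNA extraction, so that the collagen measured is that of what stayed with the gland. Most markers of fat, lymphocytes and skeletal muscle were lower on the Myd88-KO arrays, as given below. Whether the removal was equal on all arrays was not tested.

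Collagens are proteins of 3 chains wound into a triple helix, in which glycine recurs at a fixed spacing along each chain. Fibrillar chains are secreted mainly by fibroblasts, trimmed at their ends and assembled into the fibrils that give the interlobular septa and the capsule of a gland their strength. Type IV chains form a sheet-like network under epithelium and around vessels, muscle cells and nerves, and in a gland this basement membrane surrounds acini and ducts. Type VI chains form beaded filaments between the fibrils and the basement membrane, and the fibril-associated collagens with interrupted triple helices (FACITs) sit on the surface of fibrils.

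The glycine repeat can be read in the probes themselves. A codon for glycine starts with GG, so a probe inside a triple helix holds GG and any base at a spacing of 9 bases. This pattern filled 2 of 68 collagen probes (2.94%) and 5 of 55613 other probes (0.009%). The tested probe of Col15a1 is shown because it lies in such a repeat, with the glycine codons in capitals (mm9, chr4:47283786-47283845, + strand).
Col15a1: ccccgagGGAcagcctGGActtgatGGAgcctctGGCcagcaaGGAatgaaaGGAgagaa

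Signal is given as the log2 intensity of a probe minus the 75th percentile of its array, so that a difference of 1 is a 2-fold difference, and it has no meaning between probes. On the 4 arrays, 52.2% to 74.2% of probes were well above background. Within each genotype the arrays differed in this share more than the genotypes did, at 52.2% and 68.4% for Myd88-KO and 74.2% and 55.1% for Wildtype. All 16 gland marker genes on the array, among them Aqp5, a water channel of acinar cells, were well above background on every array. The deleted gene did not check the labels: the log2 signal of its probe was 1.51 and 1.41 on the Myd88-KO arrays and 1.15 and 1.07 on the Wildtype arrays (difference 0.35, SE 0.11, adjusted p = 0.264 from limma), and whether this probe lies in the deleted part is not given in the sources used here. Groups are therefore named by their labels.

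Genes entered the test if both Myd88-KO arrays or both Wildtype arrays had a probe well above background, and the brightest probe of this kind was used. In limma's moderated test, 0 of 22321 genes tested (0%) passed the threshold of 0.05 after adjustment, with 0.194 as the lowest adjusted p. No collagen difference below therefore passed the test after adjustment. At an unadjusted p under 0.05, 2190 genes (9.81%) were higher and 1524 (6.83%) lower on the Myd88-KO arrays. When arrays were scaled on detected probes alone, the split was 1654 higher and 1885 lower. The median log2 difference over all genes tested was 0.06.

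Among the collagens, 28 of 43 genes were tested and 22 of these were well above background on all 4 arrays. The signal of 24 of the 28 was lower on the Myd88-KO arrays, and the median log2 difference was -0.31. At an unadjusted p under 0.05, 10 collagens were lower (35.7%, against 6.83% of all genes tested) and 1 was higher (3.57%, against 9.81%). The 4 arrays fell apart by genotype, with both Myd88-KO arrays below both Wildtype arrays, for 17 of 28 collagens (60.7%, against 18.7% of all genes tested), and with both above for 1 (3.57%, against 33.2%). Of the 22 genes measured on every array, 19 were lower, 16 with no overlap and 10 at an unadjusted p under 0.05. The 6 measured on fewer arrays passed the filter through the Wildtype arrays alone, a route that favours lower Myd88-KO values. Of these 6, 5 were lower and 0 had an unadjusted p under 0.05. The count of 10 fell to 6 without Myd88-KO array 1 and to 6 without Wildtype array 2. With arrays scaled by their median it fell to 0, although 26 of 28 collagens were then lower.

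**Figure D1:**
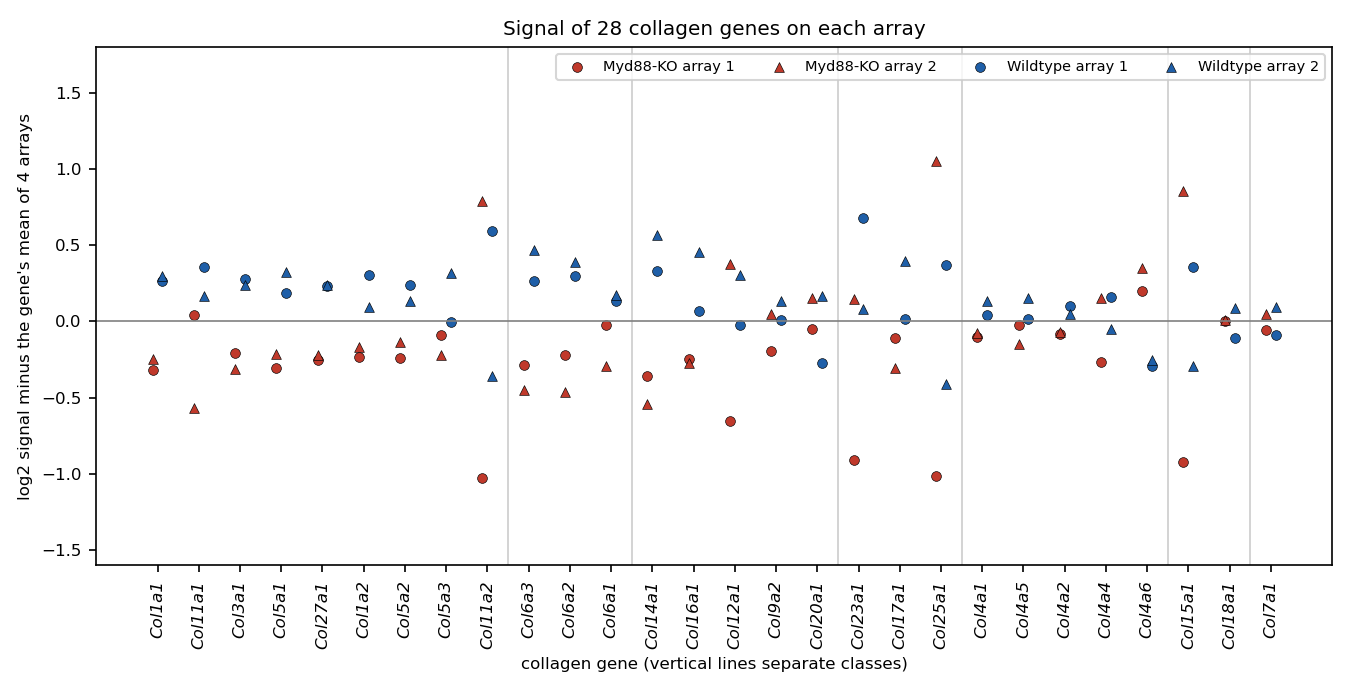
Log2 signal of each of 28 tested collagen genes on each of 4 arrays, minus the mean of the gene over the arrays (vertical axis, log2 units), with genes on the horizontal axis grouped by class in the order fibrillar, beaded filament, FACIT, transmembrane, basement membrane, multiplexin and anchoring fibril. Red points are Myd88-KO, blue points Wildtype, circles array 1 and triangles array 2. The blue points lie above the red for 8 of 9 fibrillar chains, and for Col4a6 the red lie above the blue.

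The fibrillar chains were lower on the Myd88-KO arrays for 9 of 9 genes tested, with a median log2 difference of -0.47. Of these, 6 had an unadjusted p under 0.05, against 6.83% of all genes tested, and for 8 of 9 the genotypes did not overlap, against 18.7%. Col11a1 and Col11a2 passed the filter through the Wildtype arrays alone, which favours lower Myd88-KO values. The 7 chains well above background on all 4 arrays were all lower, with no overlap. The count of 6 fell to 3 without Myd88-KO array 1 and to 3 without Wildtype array 1, to 4 without either of the other arrays, and to 0 with median scaling. Type I collagen, the main collagen of most connective tissues, is made of the chains encoded by Col1a1 and Col1a2. The log2 signal of Col1a1 was 3.33 and 3.40 on the Myd88-KO arrays and 3.91 and 3.95 on the Wildtype arrays. The genotypes lay well apart, and the difference was -0.56 (SE 0.10, adjusted p = 0.203), or 1.48-fold. Col1a2 was at 4.64 and 4.71 against 5.18 and 4.97, which is again lower on both Myd88-KO arrays (difference -0.40, SE 0.12, adjusted p = 0.269). Type III collagen, which forms thin fibrils together with type I, is encoded by Col3a1. Its signal was 3.89 and 3.78 on the Myd88-KO arrays and 4.38 and 4.34 on the Wildtype arrays (difference -0.52, SE 0.10, adjusted p = 0.205).

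Type V chains nucleate type I fibrils and limit their width. Col5a1 stood at -0.40 and -0.31 on the Myd88-KO arrays and at 0.09 and 0.23 on the Wildtype arrays, with no overlap (difference -0.52, SE 0.11, adjusted p = 0.212). Col5a2 was at -2.29 and -2.19 against -1.81 and -1.91 (difference -0.38, SE 0.11, adjusted p = 0.256). The third type V chain, Col5a3, was at 1.52 and 1.39 against 1.60 and 1.92. The genotypes did not overlap here either, but the Wildtype arrays differed from each other by more than the gap, and the difference was -0.31 (SE 0.16, adjusted p = 0.416). Col27a1, a fibrillar chain known from cartilage, was dim and even within each genotype, at -3.18 and -3.14 against -2.69 and -2.69 (difference -0.47, SE 0.10, adjusted p = 0.206). With normexp background correction its difference shrank to -0.06 and that of Col5a2 to -0.08.

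The type XI chains are the cartilage relatives of type V and were near background in the glands. Col11a1 was well above background on neither Myd88-KO array, with a signal of -4.04 and -4.64 against -3.72 and -3.91. The Myd88-KO arrays were therefore at least 1.14-fold lower, a bound that sets the Wildtype mean against the higher, on each Myd88-KO array, of the signal of the probe and the lowest signal called well above background (adjusted p = 0.391). Col11a2 was scattered across the arrays, at -4.03 and -2.21 against -2.41 and -3.37, and the genotypes overlapped (difference -0.23, SE 0.76). The differences of both turned positive with normexp, to 0.05 and 0.03. The cartilage chain Col2a1 and the fibrillar chain Col24a1 did not rise above background on any array.

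Col3a1 and Col5a2 are neighbours on chromosome 1, where their probes lie 25.6 kb apart on opposite strands. Their differences were -0.52 and -0.38. The promoters of Col1a2 and Col3a1 are shown because these chains are among the fibrillar genes that were lower together and hold different motifs. Each window runs from 250 bases before to 50 bases after the RefSeq start, on the + strand of GRCm38.p6 (Col1a2 at chr6:4505368-4505667, Col3a1 at chr1:45311288-45311587). Capitals mark matches to 3 motifs, the CCAAT box, the GC box with letters GGGCGG and the TATA box with letters TATAAA. They were searched on both strands and counted separately, so that a match may share bases with another.
Col1a2: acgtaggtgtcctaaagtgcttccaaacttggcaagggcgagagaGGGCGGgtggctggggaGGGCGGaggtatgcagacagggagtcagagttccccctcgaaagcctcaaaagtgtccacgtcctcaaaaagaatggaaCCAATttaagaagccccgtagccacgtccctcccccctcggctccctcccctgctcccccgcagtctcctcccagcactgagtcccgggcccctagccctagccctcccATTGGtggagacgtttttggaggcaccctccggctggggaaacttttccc
Col3a1: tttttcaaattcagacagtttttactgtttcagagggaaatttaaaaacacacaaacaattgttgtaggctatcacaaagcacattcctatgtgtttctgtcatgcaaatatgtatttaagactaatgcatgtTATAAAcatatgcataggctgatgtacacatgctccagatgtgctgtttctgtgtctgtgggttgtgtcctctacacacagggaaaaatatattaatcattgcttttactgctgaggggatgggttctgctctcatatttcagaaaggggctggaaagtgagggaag

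The Col1a2 window holds 2 matches to GGGCGG and 2 to CCAAT, and the Col3a1 window holds 1 to TATAAA. A window was found for 35 of 43 collagens and for 7 of the 9 tested fibrillar chains. Of these 7 genes, 6 hold GGGCGG, 3 hold CCAAT and 2 hold TATAAA. Of 32817 promoter windows in the same table, 35.6% hold GGGCGG, 37.4% CCAAT and 13.6% TATAAA. A match describes the letters and does not show that a factor binds.

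The basement membrane chains showed smaller differences. Of 5 genes tested 4 were lower on the Myd88-KO arrays, 0 of them at an unadjusted p under 0.05, and the median log2 difference was -0.15. The fifth, Col4a6, was higher. Without overlap between the genotypes, 3 of the 5 were lower (60%, against 18.7% of all genes tested) and 1 higher (20%, against 33.2%). The main type IV network of all basement membranes is built from the chains of Col4a1 and Col4a2. Col4a1, which has 10 spots on each array, was at 2.43 and 2.46 on the Myd88-KO arrays and 2.58 and 2.67 on the Wildtype arrays. The genotypes did not overlap, but the difference of -0.18 (95% interval -0.47 to 0.11, adjusted p = 0.459) was within the error of the fit. Col4a2 was at 2.41 and 2.42 against 2.59 and 2.54, and its difference was -0.15 (95% interval -0.42 to 0.13, adjusted p = 0.508). For comparison, the 95% interval of Col1a1 ran from -0.85 to -0.28 and that of Col3a1 from -0.82 to -0.22. The intervals of the type I and type IV chains overlap, and the difference between the classes was not tested.

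Col4a1 and Col4a2 lie head to head on chromosome 8 and are known to share a promoter. Their RefSeq start sites are 21 bases apart on opposite strands, and their windows share 78 bases. The window of Col4a2 is shown because both chains start from it and their differences were close, at -0.18 and -0.15, and capitals mark the shared bases (GRCm38.p6, chr8:11312555-11312854, + strand).
Col4a2: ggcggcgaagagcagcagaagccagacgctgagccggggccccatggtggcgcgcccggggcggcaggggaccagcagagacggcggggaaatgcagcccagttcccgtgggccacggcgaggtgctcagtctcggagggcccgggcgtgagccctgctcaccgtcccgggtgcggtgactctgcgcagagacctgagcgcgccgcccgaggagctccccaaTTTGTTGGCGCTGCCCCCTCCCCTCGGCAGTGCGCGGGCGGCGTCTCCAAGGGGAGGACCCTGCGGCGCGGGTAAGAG

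The other type IV chains build networks of more restricted tissues. Col4a5 was at -0.24 and -0.36 on the Myd88-KO arrays and at -0.20 and -0.06 on the Wildtype arrays, a narrow gap (difference -0.17, 95% interval -0.50 to 0.16). Col4a4 overlapped between the genotypes, at -1.63 and -1.21 against -1.20 and -1.41, and its difference of -0.11 became 0.10 without Myd88-KO array 1. Col4a3 was well above background on no array. Col4a6 was the only collagen that was higher at an unadjusted p under 0.05, with -1.147 and -0.997 on the Myd88-KO arrays and -1.637 and -1.597 on the Wildtype arrays (difference 0.55, SE 0.11, adjusted p = 0.206). Without Wildtype array 1 its unadjusted p was 0.0527, by limma's moderated test. The probes of Col4a6 disagreed: the second, at base 6544 of its transcript against base 5102 for the first, was at -1.54 and -1.41 against -1.51 and -1.29, overlapping, with a difference of -0.08. Col4a5 and Col4a6 also lie head to head, on the X chromosome, with start sites 1343 bases apart and windows that share 0 bases.

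**Figure D2:**
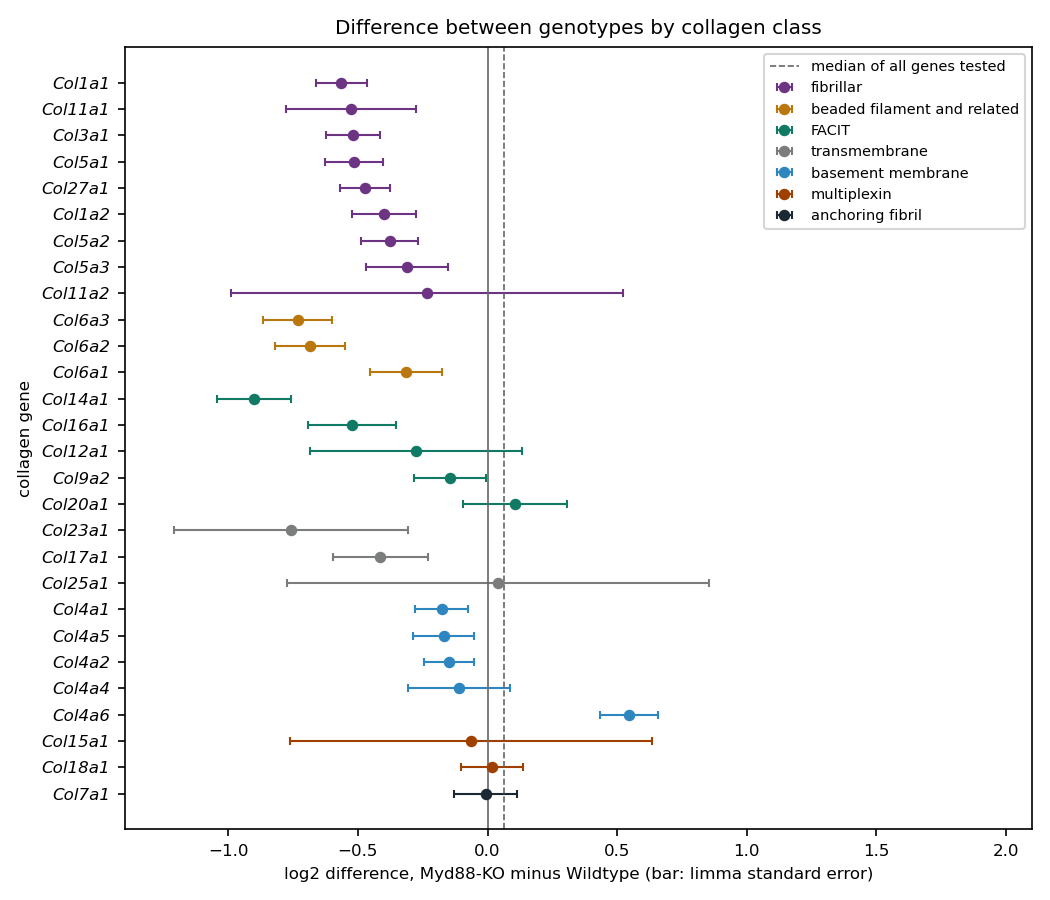
Log2 difference of each of 28 tested collagen genes, Myd88-KO minus Wildtype (horizontal axis, log2 units), coloured by class, with genes on the vertical axis. Points are means over 2 arrays against 2, bars the standard error of limma's fit, and the dashed line the median of all genes tested, 0.06. All 9 fibrillar and all 3 type VI chains lie left of 0, and the type IV chains lie near 0 apart from Col4a6 at 0.55.

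All 3 type VI chains tested were lower on both Myd88-KO arrays than on either Wildtype array. Col6a3, the longest chain of the filament, was at 1.48 and 1.31 on the Myd88-KO arrays and 2.03 and 2.23 on the Wildtype arrays (difference -0.73, SE 0.13, adjusted p = 0.203). Col6a2 was at 0.20 and -0.04 against 0.72 and 0.81 (difference -0.68, SE 0.13, adjusted p = 0.205), and a second probe gave -0.71. Its neighbour on chromosome 10, Col6a1, whose probe lies 113 kb away, was at 2.58 and 2.30 against 2.73 and 2.77, with a smaller difference of -0.31 (SE 0.14, adjusted p = 0.365). The further chains Col6a4 and Col6a5 did not rise above background on any array, and Col6a6 and the related Col28a1 did not pass the filter.

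Among the FACITs, Col14a1 had the largest difference of the 28 collagens. Its chain binds to type I fibrils and is known from their maturation in tendon and skin. The signal was 0.32 and 0.14 on the Myd88-KO arrays and 1.02 and 1.25 on the Wildtype arrays, far apart (difference -0.90, SE 0.14, adjusted p = 0.198), or 1.87-fold. A dimmer second probe overlapped between the genotypes, at -2.32 and -1.51 against -1.29 and -1.98, and gave -0.28. Col16a1, which is made by fibroblasts and smooth muscle, was at 1.37 and 1.34 against 1.69 and 2.07 (difference -0.52, SE 0.17, adjusted p = 0.280), and its second probe gave -0.65. Col12a1, Col9a2 and Col20a1 overlapped between the genotypes, with differences of -0.28, -0.14 and 0.11. Col19a1, Col22a1, Col9a1 and Col9a3 were not tested.

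The remaining collagens mostly belong to epithelium or vessels. Col7a1, whose protein anchors epithelial basement membrane to the fibrils beneath, was at 4.12 and 4.23 against 4.09 and 4.27, a difference of -0.01 with a 95% interval of -0.35 to 0.34. Col18a1, a basement membrane proteoglycan and the source of endostatin, differed by 0.02 (95% interval -0.32 to 0.36), and its second probe by -0.22. The 2 intervals do not reach the -0.56 measured for Col1a1, but they overlap its interval of -0.85 to -0.28. Differences between these genes were not tested. The relative of Col18a1, Col15a1, whose probe is printed above, was scattered on both genotypes (-0.06, and 0.32 for a second probe). Col17a1, the transmembrane collagen of hemidesmosomes, was lower on both Myd88-KO arrays with a difference of -0.41 (SE 0.18, adjusted p = 0.365). Col23a1 and Col25a1 overlapped, with differences of -0.76 and 0.04.

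The 15 collagens not tested were accounted for by their signal. Those well above background on no array numbered 7: Col2a1, Col24a1, Col4a3, Col6a4, Col6a5, Col9a3 and Col10a1, several of them known from cartilage. Another 4, Col8a2, Col9a1, Col13a1 and Col22a1, were well above background only on Myd88-KO array 2 and Wildtype array 1, the arrays with the largest share of probes above background, so that no genotype was measured on both of its arrays. Col8a1, Col19a1 and Col28a1 passed on 1 array each, and Col6a6 on no more than 2 arrays with any probe. Of 43 members, 25 had 1 probe and 18 had more. Among 8 genes with several probes above the filter, the probes had the same sign in 5 and differed in Col4a6, Col15a1 and Col18a1.

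Genes that act on collagens were then examined by role, from lists chosen by function. In the endoplasmic reticulum, chains are hydroxylated, glycosylated and folded. Of 19 genes of chain modification and folding tested, 11 were higher and 8 lower on the Myd88-KO arrays, with a median log2 difference of 0.18. P4hb, the shared subunit of prolyl hydroxylase and a general disulphide isomerase, was higher, at 6.35 and 6.28 against 5.93 and 5.82 (difference 0.44, adjusted p = 0.225). Mia3, which loads procollagen into vesicles, differed by 0.32. Crtap, a partner of the prolyl 3-hydroxylase, was lower, at 1.24 and 1.46 against 1.81 and 1.83 (difference -0.47, adjusted p = 0.239). These 3 were the members with an unadjusted p under 0.05, and 2 higher and 1 lower of 19 are shares near the 9.81% and 6.83% of all genes tested. No setting gave a median above 0.18, and it was 0.053 with quantile normalization and 0.077 to 0.144 with 1 array left out, lowest without Wildtype array 2 and 0.119 without Myd88-KO array 1. Serpinh1, the chaperone specific to procollagen, was at 1.34 and 1.22 against 1.57 and 2.23, and its difference of -0.62 had an SE of 0.26.

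After secretion the ends of fibrillar procollagens are removed and the fibrils are crosslinked. Of 6 genes of propeptide cleavage tested, 5 were lower, 3 of them at an unadjusted p under 0.05 (6.83% of all genes tested), and the median was -0.36. This median was -0.19 without Wildtype array 1, -0.25 without Myd88-KO array 1, -0.51 without Myd88-KO array 2 and -0.20 without the filter on dim probes. These were the N-proteinases Adamts14 (-0.55) and Adamts2 (-0.30) and the enhancer of C-proteinase Pcolce (-0.45), each with no overlap between the genotypes, as for 18.7% of all genes tested. The C-proteinase Bmp1 differed by 0.05. Of 6 crosslinking genes, 4 were lower, 2 of them at an unadjusted p under 0.05, with a median of -0.26. This median was -0.14 without Myd88-KO array 1 and -0.14 with normexp, and -0.34 without Wildtype array 1. The lysyl oxidase Loxl1 was at 0.27 and 0.18 on the Myd88-KO arrays and 0.75 and 0.65 on the Wildtype arrays (difference -0.48, adjusted p = 0.215), and the transglutaminase Tgm2 differed by -0.46. Lox itself was dim and overlapped between the genotypes.

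Proteoglycans and glycoproteins that coat fibrils were mostly lower with the fibrillar chains. Of 15 tested, 13 were lower, 10 with no overlap (18.7% of all genes tested were lower without overlap), 3 at an unadjusted p under 0.05 (6.83% of all genes), and the median was -0.30. Lum, a proteoglycan that regulates fibril spacing, was at 2.20 and 2.12 on the Myd88-KO arrays and at 2.999 and 2.994 on the Wildtype arrays. This gap was wide against the spread within each genotype, and the difference was -0.83 (SE 0.10, adjusted p = 0.194). The related Ogn differed by -0.57, and Sparc, a collagen-binding glycoprotein, by -0.30 at an unadjusted p under 0.05. Dcn, the most widespread proteoglycan of this family, overlapped between the genotypes at 6.22 and 6.33 against 6.32 and 6.10.

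The partners of type IV collagen in the basement membrane are the laminins, nidogens, perlecan and related genes. Of 16 tested, 7 were higher and 9 lower, with a median of -0.04. Without overlap between the genotypes, 8 were lower (18.7% of all genes tested) and 4 higher (33.2% of all genes tested). Frem2, an epithelial basement membrane protein, was higher, at 3.11 and 2.86 against 2.23 and 2.37 (difference 0.69, adjusted p = 0.209). Nid2, a nidogen, was lower (-0.40). Of 10 collagen receptors, 5 were higher and 5 lower, with a median of 0.00. Ddr2, the discoidin receptor of fibroblasts, was lower (-0.44), and Sdc1, a syndecan of epithelium and plasma cells, was higher (0.39), both at an unadjusted p under 0.05. This share, 1 of 10 in each direction, is near the 9.81% and 6.83% of all genes tested. Ddr1, the epithelial relative of Ddr2, stood at 1.91 and 1.68 against 1.42 and 1.58, with an adjusted p of 0.386.

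Of 8 genes of collagen degradation tested, 7 were lower, though by a median of only -0.08, which was -0.18 without Myd88-KO array 2, -0.25 without Wildtype array 2, -0.034 without Myd88-KO array 1 and -0.047 without Wildtype array 1. Ctsk, the cathepsin that cuts the triple helix, was at 0.16 and 0.22 against 0.86 and 0.66 (difference -0.57, adjusted p = 0.210). The inhibitors Timp2 and Timp3 differed by -0.02 and -0.05. In the axis of transforming growth factor beta, which raises collagen transcription in fibroblasts, 4 of 11 genes were higher and 7 lower, and the median was -0.01. The receptor Tgfbr2 was at 2.36 and 2.36 on the Myd88-KO arrays and 2.91 and 2.84 on the Wildtype arrays (difference -0.51, adjusted p = 0.205). The ligands Tgfb1, Tgfb2 and Tgfb3 and the target Ctgf each had an adjusted p of 0.543 or more.

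**Figure D3:**
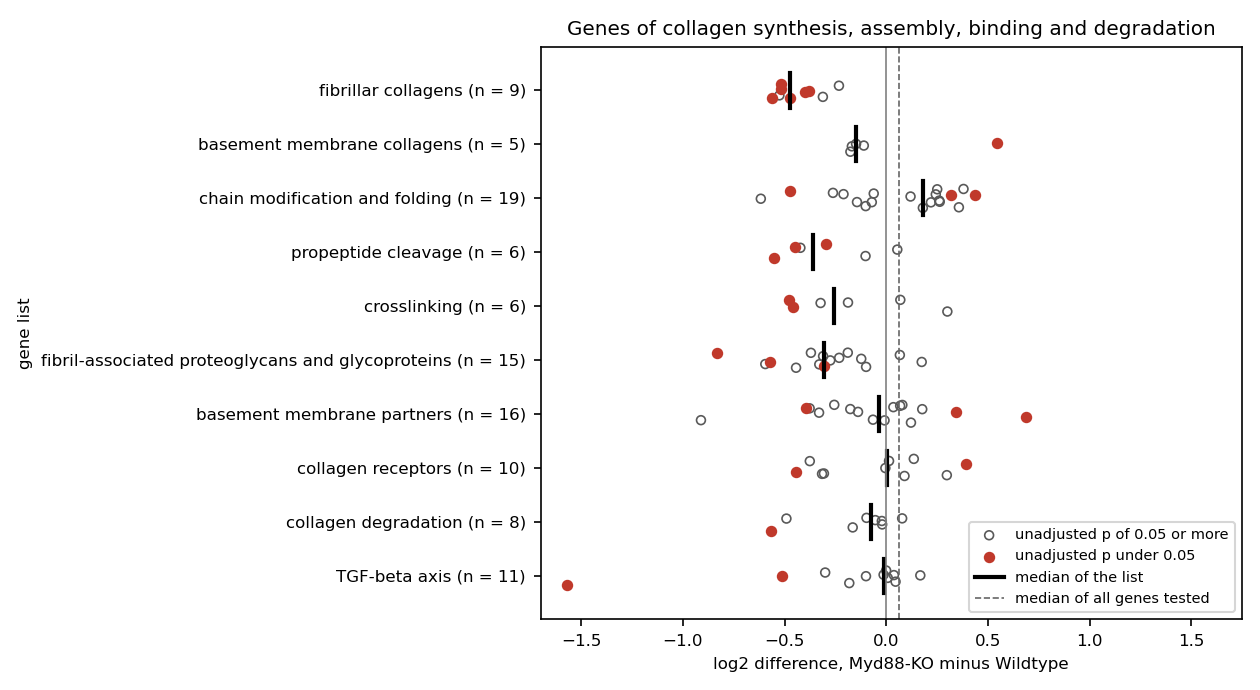
Log2 difference, Myd88-KO minus Wildtype (horizontal axis, log2 units), of genes that make, trim, crosslink, coat, bind or degrade collagen, by list (vertical axis, with the number of genes tested), beside the fibrillar and basement membrane collagens. Filled points have an unadjusted p under 0.05, thick bars are medians of a list, and the dashed line is the median of all genes tested, 0.06. The medians for propeptide cleavage (-0.36), crosslinking (-0.26) and fibril-associated genes (-0.30) lie on the side of the fibrillar collagens (-0.47), and that of chain modification and folding (0.18, and 0.053 with quantile normalization) on the other.

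Markers of the cells that a gland sample can hold were set beside the collagens. In such bulk samples, fewer cells of a type and less RNA per cell cannot be told apart. Across all genes tested, 6.83% were lower and 9.81% higher at an unadjusted p under 0.05, and in lists this short a count rests on few genes. Of 13 fibroblast markers tested, 11 were lower on the Myd88-KO arrays, 7 of them with no overlap (18.7% of all genes tested). At an unadjusted p under 0.05, 2 were lower (Thy1 at -1.20 and Vim at -0.53). Whether these 2 differences come from fibroblasts was not tested. Pi16 (-0.03) and Mfap5 (-0.12) overlapped between the genotypes, as did the 2 higher markers, Fbln1 (0.16) and Fbln2 (0.06). The median of all 13 markers was -0.19. The median was -0.095 without Wildtype array 1 and -0.34 without Wildtype array 2. The summed signal of these markers, in units of the 75th percentile, was 41.4 and 45.4 on the Myd88-KO arrays and 58.7 and 48.0 on the Wildtype arrays. That of the 9 fibrillar chains was 53.9 and 54.5 against 76.8 and 72.5, and that of the 5 type IV chains 12.4 and 12.6 against 13.6 and 13.9. Such sums weigh the brightest probes most, and the fibrillar sum rests mostly on Col1a1, Col1a2 and Col3a1. Of 8 smooth muscle and myoepithelial markers 0 had an unadjusted p under 0.05, and of 8 endothelial markers 2 were lower (Cdh5 at -0.64, Tie1 at -0.57) and 1 higher (Emcn at 0.36). At the same threshold 2 of 7 Schwann cell markers were lower (S100b at -1.47, Gfra3 at -0.68), and of 7 macrophage markers Emr1 was higher (0.65). Of 10 cartilage and bone markers on the array 5 were tested, Bglap was higher (0.79), and the cartilage genes Acan, Matn1 and Matn3 were not tested.

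Markers of muscle, fat and lymphocytes differed more. The counts below at an unadjusted p under 0.05 stand beside 6.83% lower and 9.81% higher of all genes tested. All 11 skeletal muscle markers tested were lower at an unadjusted p under 0.05 (Tnnc2 at -5.99, Tnni2 at -5.07, and Myh4 at least 218-fold lower, by the bound given for Col11a1). The myosins Myh2 and Myh4 and the actinin Actn3 were well above background on neither Myd88-KO array. Their summed signal was 3.40 and 3.59 on the Myd88-KO arrays and 26.6 and 148 on the Wildtype arrays, so that Wildtype array 2 was 5.57-fold above Wildtype array 1. Between the same arrays the summed fibrillar signal was 0.944-fold, and without Wildtype array 2 the fibrillar median was -0.50. Wildtype array 1 was also above both Myd88-KO arrays in muscle signal, so leaving out Wildtype array 2 does not separate muscle from collagen. All 8 adipocyte markers tested were lower with no overlap (18.7% of all genes tested), 4 at an unadjusted p under 0.05 (Pparg at -1.17, Plin1 at -1.09, Plin4 at -0.96), and their summed signal was 156 and 245 against 337 and 341. All 6 B cell markers tested were lower, 5 at an unadjusted p under 0.05 (Cd79b at -5.08, and Ms4a1, not well above background on either Myd88-KO array, at least 28.5-fold lower), and summed to 3.239 and 3.102 against 16.3 and 9.43. All 7 T cell markers tested were lower, 5 with no overlap and 3 at an unadjusted p under 0.05 (Cd3d at -4.45, Lck at -3.06, Cd2 at -2.71). Cd3e (-0.06) and Cd4 (-0.04) overlapped between the genotypes. The T cell markers summed to 12.1 and 11.6 against 21.4 and 16.4, and on the Myd88-KO arrays Cd4 and Cd3e made up most of this sum. Of 16 gland markers 7 were higher and 1 lower at an unadjusted p under 0.05 (Smr3a at -1.86, Slc12a2 at 0.42, Car6 at 0.39). The summed signal of the 16 was 12030 and 11490 against 10171 and 10678. The part of these tissues in the collagen differences was not tested.

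**Figure D4:**
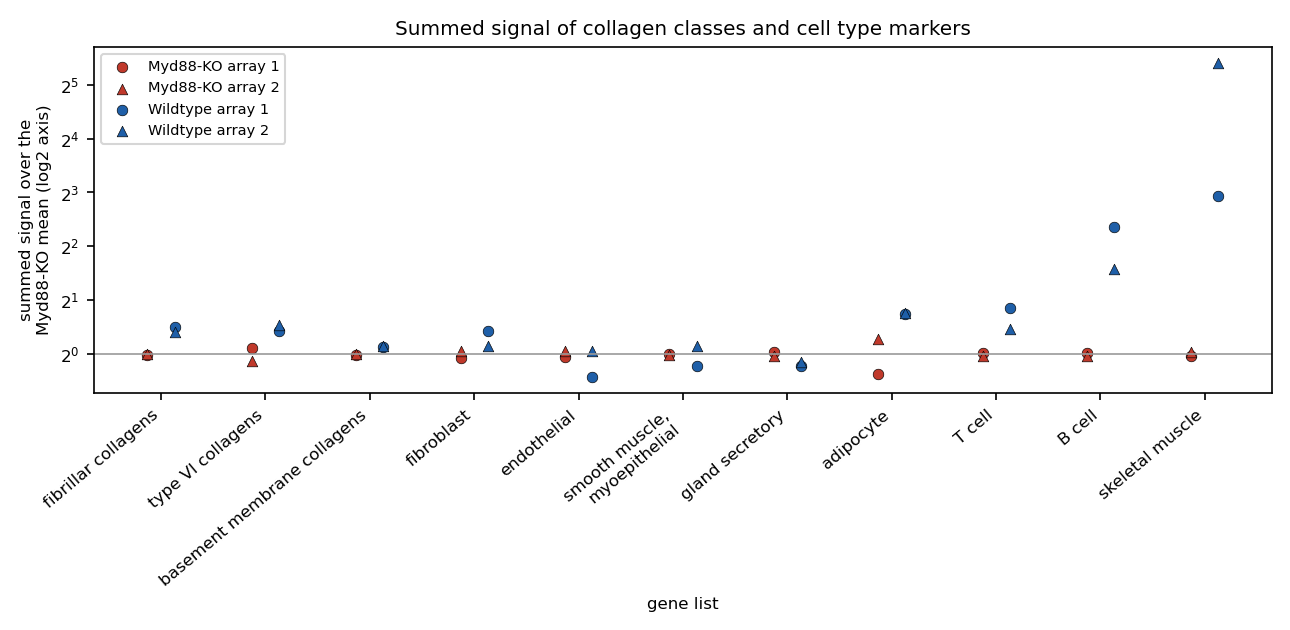
Summed signal of collagen classes and cell type marker lists on each array, divided by the mean of the Myd88-KO arrays (vertical axis, log2 scale, 1 is the Myd88-KO mean). Red points are Myd88-KO, blue points Wildtype, circles array 1 and triangles array 2. Fibrillar collagens on the Wildtype arrays lie close together at 1.38-fold on average, and skeletal muscle markers on the same arrays lie 5.57-fold apart. Each sum weighs the brightest probes of its list most.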

How the data were processed

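Gene expression was measured on 4 Agilent whole mouse genome arrays of 1 colour, all on 1 slide and from 1 scan. The authors deposited scanner output of Feature Extraction 10.7.3.1, whose processed signal is an intensity from which background and spatial trends had been removed, without normalization between arrays. Probe positions in the files are those of mm9. The 4 value columns of a processed table were not used, because they match no single sample.

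Here, the 75th percentile of each array was subtracted from the log2 processed signals of 59305 non-control spots. Flagged outlier spots (99 to 131 per array) were left out and replicate spots of a probe averaged. Such a probe was called well above background if over a share of 0.5 of its spots were. The genotypes were compared in R 4.3.3 with limma 3.58.1 (lmFit, eBayes), and p-values were adjusted over all genes tested by Benjamini-Hochberg at a threshold of 0.05. All adjusted p-values and intervals come from this fit, and the number of arrays limits their precision. The procedure was tested on simulated data. Sequences were searched in Python 3.11.15, and promoters are those of RefSeq (GRCm38.p6).

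Values on every array are given for tested fibrillar and basement membrane chains and for other collagens with an unadjusted p under 0.05. Of each list of genes acting on collagen, members with such a p are named (at most 5), and of marker lists at most 3. A few list members that this rule would name are not reported here. Other genes were named after their values were seen. Members and lists were chosen with earlier results of these data known. Same-numbered arrays did not deviate together (r = -0.37 over all genes tested and -0.75 over the collagens tested), so no block by array number was used. Differently numbered arrays of opposite genotype did deviate together, with r = 0.37 over all genes tested and 0.75 over the collagens tested. The main fit did not model this shared deviation. A block on these crossed pairs was run only as an alternative, chosen after seeing the data. Alternatives were normexp (offset 50), scaling by quantiles, the median, cyclic loess or detected probes, other filters on dim probes, the mean of the probes of a gene, all spots, another moderation (trended and robust), the methods' t-test, replicate blocks, and each array left out.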

Additional observations from a re-analysis of the deposited data

How the results depend on the processing

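The direction of 15 of 18 collagens (all tested fibrillar and basement membrane chains, Col6a2, Col6a3, Col14a1 and Col16a1) was the same under all 17 alternatives. Not all of these could change it. Another moderation, the methods' t-test and the blocks refit the same values, so the differences were the same. Keeping flagged spots left the differences of these 18 unchanged, and for a gene with 1 probe the mean of its probes is the same value. The basement membrane median stayed between -0.22 and -0.12. The fibrillar median was -0.33 with normexp background correction and -0.57 with cyclic loess, and -0.50 to -0.45 with 1 array left out. The count of genes passing the adjusted p was 80 with normexp, 402 with median scaling, 482 with trended and robust moderation and 1 with the methods' t-test. Trended and robust moderation called 4 collagens: Col14a1 (adjusted p = 0.0399), Col1a1 (0.0419), Col6a3 (0.0457) and Col3a1 (0.0478). Over all alternatives the adjusted p of these 4 reached up to 1.00, with median scaling. Collagens with an unadjusted p under 0.05 numbered 11 (10 lower), and 0 (0 lower) with median scaling, for which the cause was not tested. With 1 array left out they numbered 7 to 10 (6 to 9 lower), and the arrays that gave 7 were Myd88-KO array 1 and Wildtype array 2. With the replicate block, 8 (7 lower) remained under this threshold, and with crossed replicate numbers, chosen after seeing the data, 13 (12 lower). The methods' t-test at an unadjusted p under 0.05 gave 2009 genes higher and 926 lower.

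Reversed differences were those of Col11a1 (0.045 with normexp), Col11a2 (0.025 with normexp, and -1.14 to 0.68 with 1 array left out) and Col4a4 (-0.32 to 0.10 with 1 array left out). The median of collagen receptors turned to -0.013 with quantile normalization, -0.052 with the percentile over detected probes, -0.047 with median scaling, -0.052 with cyclic loess and -0.089 with the mean of the probes, and was -0.047 to 0.027 with 1 array left out. That of basement membrane partners turned to 0.013 without the filter and 0.013 with the mean of the probes. Of calls at an unadjusted p under 0.05, 59.0% were higher on the Myd88-KO arrays, against 48.7% with quantile normalization, 46.7% with the percentile over detected probes, 41.5% with cyclic loess and 24.1% with median scaling. A slide block was not run, since all arrays share 1 slide. Dim probes limit Col11a1, Col11a2, Col12a1, Col15a1, Col23a1 and Col25a1, each well above background on 2 or 3 arrays.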
